A study of Mus musculus with 30 samples.

Results

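Silencing of Mcu in single fast muscle fibres was followed over time by asking whether its effect on each transcript was the same at 14 days as at 7 days after virus injection. The 15 fibres used, of 30 in the series, were those of the 4 groups that define this contrast: AAVshLuc and AAVshMCU fibres at day 7, and AAVshLuc and AAVshMCU fibres at day 14. The quantity of interest is the AAVshMCU minus AAVshLuc difference at day 14, minus the same difference at day 7. There were 4 AAVshLuc and 3 AAVshMCU fibres at day 7, and 4 of each at day 14. All were taken from the extensor digitorum longus, a fast muscle of the mouse hindlimb, of male CD1 mice injected at 8 weeks of age. AAVshMCU is an adeno-associated virus that carries a short hairpin RNA against Mcu. AAVshLuc is the control virus: the sample titles name a luciferase hairpin, whereas other labels speak of a virus without insert, and the sources used here do not settle which it was. Fibres of both kinds were picked for the green fluorescent marker of the virus and, per the labels, for the intended change of MCU by quantitative PCR, so each profile describes 1 chosen fibre and not the muscle. The labels call the fibres biological replicates but name no animal, so fibres of a group may share one, and p-values measure the spread between fibres. Each array is scaled to itself, so levels are relative to the other transcripts of a fibre and a change in its total RNA is not seen.

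MCU is the pore of the mitochondrial calcium uniporter, the channel through which calcium that is released at each contraction enters the mitochondrial matrix. There it stimulates matrix dehydrogenases and so ties ATP production to work. Calcium that stays in the cytosol acts on other targets, among them the kinases and phosphatases that drive activity-dependent transcription. The 23 gene lists examined cover respiration, contraction-linked signalling and the muscle stress response, and also the circadian clock, the interferon response, antigen presentation, growth signalling and ribosomal proteins.

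Levels are log2 spot intensity relative to the 75th percentile of the array. On the 15 arrays 49.4% to 56.5% of probes were well above background, and the 75th percentile lay between 82.5 and 133 intensity units, with the 3 AAVshMCU day 7 arrays among the 4 lowest. Each day's 2 groups shared a slide, the AAVshLuc fibres lay in columns 3 and 4 and the AAVshMCU fibres in columns 1 and 2 on both slides. An additive effect of slide therefore cancels in the difference between days. An effect of column need not, because the AAVshMCU fibres lay in columns 1, 2 and 2 at day 7 and in each column 2 times at day 14, and its part was not tested. The myosin transcripts of fast fibres were not even across groups. Myh4, the myosin of the fastest (2B) fibres, lay between 7.38 and 7.97 in 13 of the 15 fibres, but at 5.92 and 0.37 in AAVshMCU day 14 fibres 1 and 3. Myh1, the 2X myosin, reached 7.91 and 7.52 in those same fibres and 7.57 in AAVshMCU day 7 fibre 3, and was at most 6.17 elsewhere. These day 14 fibres are called Myh1-rich below, and where the time class of a gene described here changes without both of them, this is said beside it.

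The Mcu transcript was low in all 7 AAVshMCU fibres. The probe, at chr10:58929203-58929262 on the minus strand of mouse build mm9, starts with the bases shown here, printed beside the Abcc9 probe, at chr6:142536920-142536979 on the minus strand, whose transcript had the smallest p-value for the difference between days.
Mcu probe: ctcgatgactttaagcttgtcattaatgac
Abcc9 probe: attgcgttgcttgggctacctccgatgaca
At day 7 the level of Mcu was 2.65, 2.30, 2.31 and 3.02 in the AAVshLuc fibres and 1.28, -0.60 and 0.78 in the AAVshMCU fibres. At day 14 it was 2.33, 2.65, 2.80 and 2.40 in the AAVshLuc fibres and -1.15, -0.01, -1.69 and 0.75 in the AAVshMCU fibres. Control and silenced fibres did not overlap on either day, while the silenced fibres of both days overlapped each other. Mcu fell by 2.08 ± 0.41 (SE) at day 7 and by 3.07 ± 0.38 at day 14 on the log2 scale, which is 4.24-fold and 8.40-fold (limma, adjusted p = 0.0015 and 1.4e-05). The difference between days of -0.99 ± 0.55 did not pass (limma, adjusted p = 0.33), nor did it in any of the 33 alternative fits. The lowest day 14 levels, -1.15 and -1.69, were those of the Myh1-rich fibres, and without both the difference was -0.09 ± 0.46. Because fibres were chosen by their MCU level, this checks the labels and is not an independent result. Of the 12 other transcripts of the uniporter and matrix calcium list, none passed for the difference between days. Micu2, which encodes a calcium-sensing gatekeeper of the channel, changed by -0.24 ± 0.24 at day 7 and 0.57 ± 0.22 at day 14 (limma, adjusted p = 0.16 for the difference).

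**Figure D1:**
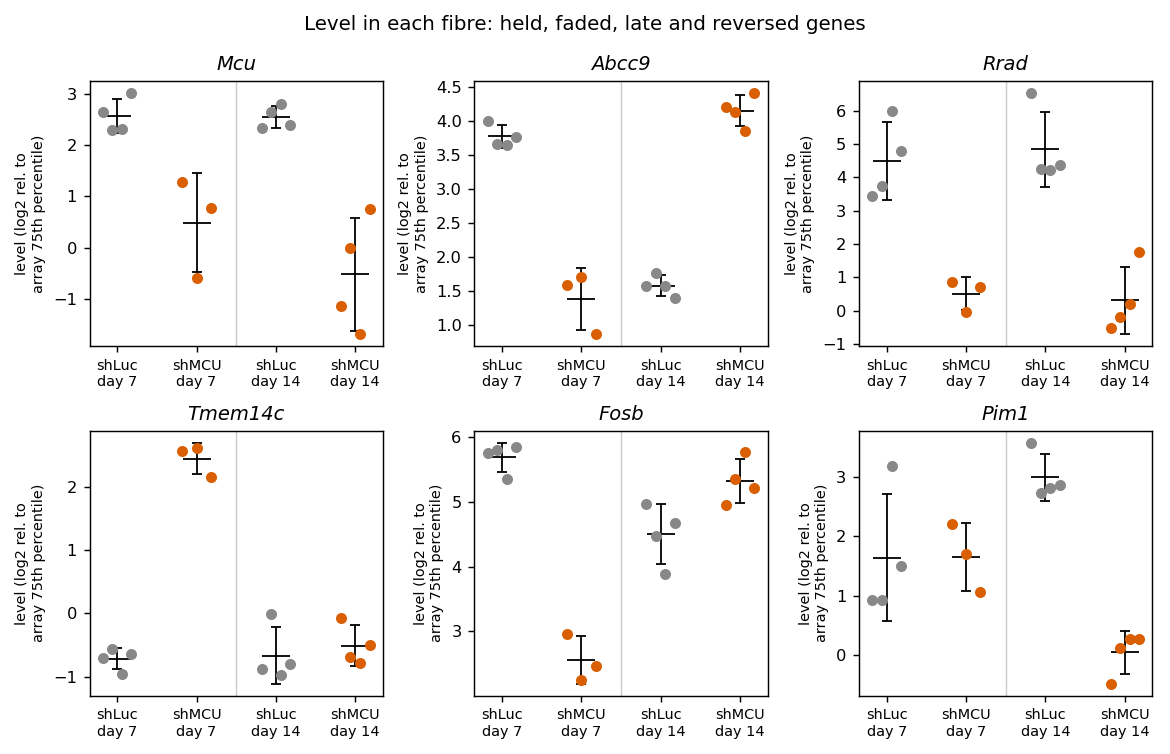
Level (log2 relative to the array's 75th percentile) of 6 transcripts in each fibre, by group; filled points are fibres in which the probe was well above background, and bars give the mean and SD (n = 3 for AAVshMCU at day 7, otherwise 4). Mcu and Rrad are low in silenced fibres on both days, Tmem14c and Fosb differ at day 7 and overlap at day 14, Pim1 separates at day 14, and Abcc9 changes direction.

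The response to silencing was broader at day 7 than at day 14. Of 21779 genes tested, 3146 differed between AAVshMCU and AAVshLuc fibres at day 7 (14.4% of genes) and 855 at day 14 (3.93%; limma, adjusted p below 0.05). At day 7 1903 genes were higher (8.74%) and 1243 lower (5.71%), and at day 14 381 were higher (1.75%) and 474 lower (2.18%). The effect itself differed between days for 1020 genes (4.68%), of which 355 had a higher (1.63%) and 665 a lower effect at day 14 (3.05%). Over the mean of both days 3279 genes passed (15.1%), 1817 higher (8.34%) and 1462 lower (6.71%). The difference between days passed for 377 of these, and in 292 of the 377 it ran against the mean effect. The split of the day 7 calls depends on the scaling, with 60.5% higher as scaled here and 36.4% higher when arrays were scaled to their median. For day 14 the share of calls that were higher was 44.6% here and 21.5% with median scaling. When the spread was taken from the 15 fibres alone, 1711 genes passed at day 7, 312 at day 14 and 347 for the difference between days. Leaving out AAVshMCU day 7 fibre 3 lowered the day 7 count to 1938, and leaving out AAVshLuc fibre 1, AAVshLuc fibre 4 or AAVshMCU fibre 3 of day 14 lowered the day 14 count to 556, 544 and 496. Without both Myh1-rich fibres it was 410.

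Genes were sorted by which of the 3 tests they passed. An early change was called held if the gene passed on both days in the same direction (228 genes, 1.05% of those tested), and faded if it passed at day 7 and for the difference between days but not at day 14 (673, 3.09%). A change was called late if the gene passed at day 14 and for the difference but not at day 7 (179, 0.822%), and reversed if it passed on both days in opposite directions (40, 0.184%). Of the faded genes 470 had risen and 203 had fallen at day 7. Of the held genes 87 were higher and 141 lower, and of the late genes 76 were higher and 103 lower. Most day 7 calls, 2205 genes (10.1%), passed neither at day 14 nor for the difference, and for them fading was not shown. Likewise 408 genes (1.87%) passed at day 14 alone, and 123 (0.565%) for the difference alone. The held count was 105 without both Myh1-rich fibres, 148 without AAVshMCU day 14 fibre 3 and 150 without AAVshLuc day 14 fibre 1. The faded count was 443 without AAVshMCU day 7 fibre 3. The 228 held genes are 7.25% of the day 7 list and 26.7% of the day 14 list. A gene chosen for passing on a day tends to have its largest estimate on that day, so sizes of such genes on the other day are given as values only.

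**Figure D2:**
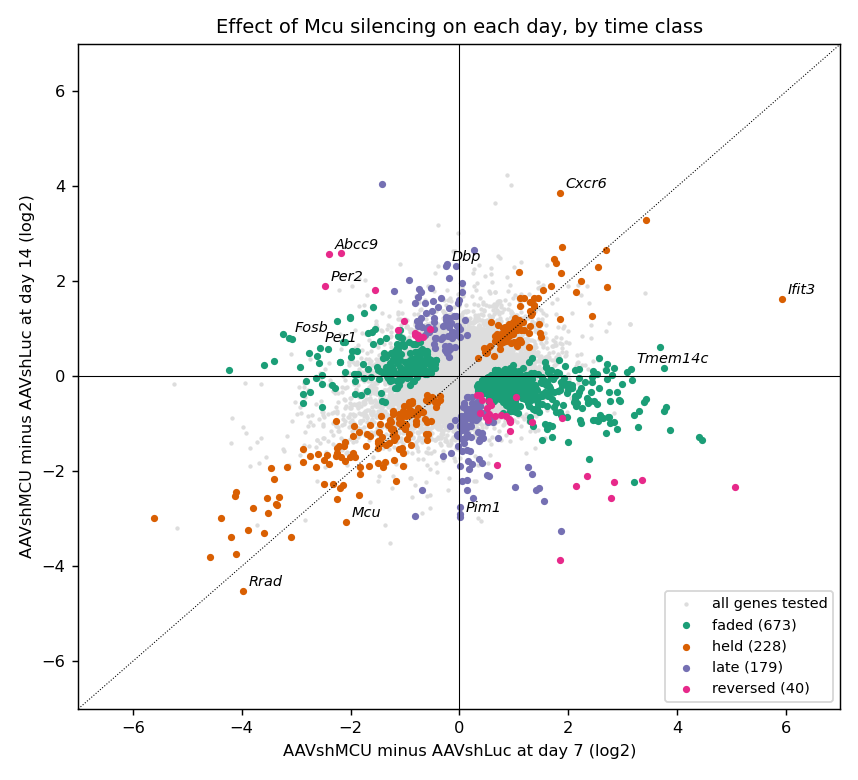
Effect of Mcu silencing (AAVshMCU minus AAVshLuc, log2) at day 7 on the x axis and day 14 on the y axis, 1 point per gene; grey, all 21779 genes tested; colours, the 4 time classes, with their counts. Faded genes lie along the x axis, late genes along the y axis, held genes near the dotted line of equal effect and reversed genes, such as Abcc9, in the opposite quadrants.

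Among the changes that held were large falls of transcripts linked to muscle stress and calcium signalling. Rrad encodes an RGK family GTPase that inhibits voltage-gated calcium channels. Its level was 3.43, 3.75, 6.0 and 4.77 in the AAVshLuc and 0.88, -0.04 and 0.71 in the AAVshMCU fibres of day 7. At day 14 it was 6.53, 4.25, 4.22 and 4.37 against -0.52, -0.19, 0.21 and 1.76. The groups did not overlap on either day, and Rrad fell by 3.97 ± 0.78 and 4.53 ± 0.72 on the log2 scale, a difference between days of -0.56 ± 1.06 (limma, adjusted p = 0.81). Wild type fibres, which lay on other slides, had mean Rrad levels of -0.39 at day 7 and -0.35 at day 14, closer to the silenced than to the control-virus fibres. Sphk1, a sphingosine kinase, fell by 3.89 ± 0.60 and 3.24 ± 0.56, again without overlap on either day. Ankrd1, an ankyrin repeat protein that binds titin and is induced by stretch, changed by -3.80 ± 0.83 and -2.77 ± 0.77. Its mean levels at day 7 and day 14 were -0.09 and 0.66 in wild type fibres. These were closer to the silenced (0.76 and 2.03) than to the control-virus fibres (4.56 and 4.80). Gem, another RGK GTPase, changed by -3.52 ± 0.77 and -2.88 ± 0.71. Gem was well above background in 1 of the 3 AAVshMCU day 7 fibres, and its second probe gave far smaller effects of -0.23 and 0.26. Trim63, the ubiquitin ligase MuRF1 that marks muscle protein for breakdown, fell by 1.5 ± 0.32 and 1.36 ± 0.30. Rrad, Sphk1, Trim63 and Ppp1r1c stayed in the held class in all 15 fits that left out 1 fibre, whereas Ankrd1 did so in 7, Gem in 12, Myc in 4, Thbd in 6 and Slc2a1 in 3.

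Without both Myh1-rich AAVshMCU day 14 fibres, Rrad, Sphk1, Ppp1r1c, Cxcr6 and Ifit3 were still called on both days in the same direction, and Ankrd1, Gem, Myc, Thbd, Fosl1, Timp1, Slc2a1, Hmox1, Klf6, Trim63 and Batf2 were called at day 7 but not at day 14. The list of RGK GTPases and titin-linked genes had 17 measured members. Of these 5 fell and 1 rose at day 7, 4 fell at day 14 and none passed for the difference between days, with median effects of -0.44 and -0.26 against 0.07 and -0.02 over all genes. The shares over all genes were 5.71% fallen and 8.74% risen at day 7, and 2.18% fallen at day 14. The 4 members that fell at day 14 became 2 without both Myh1-rich fibres, 1 without AAVshLuc fibre 1 or AAVshMCU fibre 3 of day 14, and 2 without AAVshMCU fibre 2 or 4. Hmox1, the stress-induced heme oxygenase, changed by -2.64 ± 0.52 and -1.90 ± 0.49, and Slc2a1, the basal glucose transporter GLUT1, by -3.17 ± 0.59 and -1.91 ± 0.55.

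Only 5 of the 228 held genes also differed in size between days, and all 5 were smaller at day 14. Ppp1r1c, a regulatory subunit of protein phosphatase 1, is one of them. Its level was 0.80 to 1.65 in AAVshLuc and -3.55 to -2.43 in AAVshMCU fibres at day 7 (not well above background in 2 of the 3), and -0.22 to 0.96 against -2.50 to -1.74 at day 14. It fell by 4.12 ± 0.27 and 2.53 ± 0.25, with a difference of 1.59 ± 0.37 (limma, adjusted p = 0.013). That call was lost without AAVshMCU day 7 fibre 2 (1.27, adjusted p = 0.056). Rises that held were fewer. Cxcr6, a chemokine receptor, rose by 1.85 ± 0.61 and 3.86 ± 0.57, and Batf2, a transcription factor of the interferon response, by 1.38 ± 0.45 and 1.65 ± 0.41. Both were close to the threshold at day 7, stayed in the held class in 9 and 5 of the 15 fits that left out 1 fibre, and did not with median scaling. Mean Batf2 levels at day 7 and day 14 were 2.31 and 2.98 in wild type fibres, which lay on other slides. They were 2.36 and 2.44 in AAVshMCU and 0.98 and 0.80 in AAVshLuc fibres, so the control-virus fibres were the low ones. Cxcr6 was well above background in 1 of the 4 AAVshLuc day 14 fibres. It is also a T cell marker, and the summed level of 7 lymphocyte markers, Cxcr6 among them, was 4.90 to 6.03 in AAVshLuc and 6.59 to 8.55 in AAVshMCU fibres at day 7 and 4.63 to 5.93 against 5.37 to 7.85 at day 14. On average 6.75 of these markers were well above background in AAVshLuc and 6 in AAVshMCU fibres at day 7. At day 14 these means were 5 and 6.25. The part of lymphocytes in the rise of Cxcr6 was not tested.

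The list of immediate-early and activity genes included both falls that held and falls that faded. Many of its members, though not all, are transcription factors that respond within minutes to calcium and kinase signals. Of the list's 34 measured members 12 fell and none rose at day 7, 5 fell at day 14, and 3 passed for the difference between days, all 3 with a higher effect at day 14. Among all genes 5.71% fell and 8.74% rose at day 7, 2.18% fell at day 14, and 1.63% passed for the difference with a higher effect. The list's median effect was -1.0 at day 7 and -0.66 at day 14. Its median difference was 0.44, against -0.07 over all genes. Sphk1, Myc, Klf6 and Fosl1 were held, and Fosb, Egr2 and Fosl2 faded. Without both Myh1-rich fibres, and also with median scaling, Fosb was still faded, whereas Egr2 and Fosl2 passed at day 7 alone. A second Fosl2 probe gave a difference of 0.50. The 5 falls of day 14 became 1 without both Myh1-rich fibres, 2 without AAVshLuc fibre 1 or AAVshMCU fibre 3 of day 14, and 3 without AAVshMCU fibre 1 or 2.

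Fosb, a partner in the AP-1 transcription factor, was 5.75, 5.80, 5.35 and 5.84 in AAVshLuc and 2.96, 2.25 and 2.46 in AAVshMCU fibres at day 7. By day 14 the Fosb levels were 4.97, 4.48, 3.88 and 4.68 in AAVshLuc and 4.95, 5.35, 5.78 and 5.21 in AAVshMCU fibres. The wide gap of day 7 was gone at day 14. The lowest silenced fibre (4.95) then lay just below the highest control fibre (4.97), and the other silenced fibres lay above it. All AAVshLuc fibres were lower at day 14 than at day 7, and all AAVshMCU fibres were higher, with the days on different slides. The effect was -3.13 ± 0.62 at day 7 and 0.82 ± 0.57 at day 14, a difference of 3.95 ± 0.84 (limma, adjusted p = 0.0067) that passed in each of the 33 alternatives. Egr2 went from -3.59 ± 0.81 to 0.24 ± 0.75 and Fosl2 from -1.10 ± 0.20 to -0.19 ± 0.18. These 2 sat close to the threshold and lost the call for the difference in 11 and 12 of the 15 fits that left out 1 fibre (adjusted p up to 0.12 and 0.14). Gstt3, a glutathione transferase, was not well above background in any AAVshMCU day 7 fibre and was at least 7.53-fold lower than in the control fibres. At day 14 it was well above background in all 8 fibres and its effect was 0.14 ± 0.42.

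Tmem14c, which encodes a protein of the mitochondrial inner membrane needed for heme synthesis, rose at day 7 and did not pass the test at day 14. Its level was -0.70, -0.56, -0.95 and -0.65 in AAVshLuc and 2.56, 2.61 and 2.15 in AAVshMCU fibres at day 7. The day 14 levels were -0.88, -0.01, -0.97 and -0.79 in AAVshLuc and -0.06, -0.68, -0.78 and -0.50 in AAVshMCU fibres. A gap with no overlap at day 7 was replaced by full overlap at day 14. The effect was 3.16 ± 0.21 and then 0.16 ± 0.19, a difference of -3.0 ± 0.28 (limma, adjusted p = 5.8e-07). Wild type fibres had a mean Tmem14c level of -0.68 at day 7 and 1.61 at day 14.

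Several of the largest falls in effect went with a split among the day 14 control fibres. Glb1, lysosomal beta-galactosidase, was 1.45 and 1.20 in AAVshLuc day 14 fibres 1 and 2, which lay in row 1 of the slide, and -1.27 and -1.19 in fibres 3 and 4, which lay in row 2. Its effect was 3.29 ± 0.47 at day 7, with no overlap, and -1.06 ± 0.43 at day 14. Sstr4, a somatostatin receptor, was -0.39 and -0.60 in fibres 1 and 2 and -2.35 and -2.23 in fibres 3 and 4. Smr2 and Coro2a had the same split. With the row as a covariate all 4 differences still passed; the part of position, or of fibre, in the split was not tested. Mki67, the proliferation marker, went from 3.21 ± 0.57 to -0.81 ± 0.53, Spidr from 3.20 ± 0.78 to -2.22 ± 0.72, and Ces1d, a carboxylesterase, from 3.17 ± 0.59 to -0.07 ± 0.55. Ces1d lost the call for the difference without AAVshMCU day 7 fibre 3 (adjusted p = 0.062). On the 15 fibres alone Ces1d, Mki67 and Coro2a did not pass for it (limma, adjusted p = 0.13 for Coro2a).

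Nuclear-encoded subunits of the respiratory chain shifted upward together at day 7 and not at day 14. All 36 measured subunits of complex I had a positive effect at day 7, from 0.14 to 0.85, and 14 of them rose. At day 14 their effects ran from -0.34 to 0.40 and none passed in either direction. Their median effect was 0.45 at day 7 and 0.07 at day 14, and their median difference was -0.41. Of 38 subunits of complexes III to V 18 rose at day 7 and none passed at day 14, with medians of 0.47 and 0.06 and a median difference of -0.42. For the difference between days 4 complex I subunits passed (Ndufv3, Ndufa7, Ndufb2 and Ndufb5) and 3 of complexes III to V (Cox7b, Atp5j and Cox6c), all 7 with a lower effect at day 14. Of all genes tested 8.74% rose at day 7, and 3.05% passed for the difference with a lower effect at day 14. How many subunits rose at day 7 depends on single fibres. Of complex I and of complexes III to V, 7 and 6 rose without AAVshMCU fibre 3, 9 and 9 without AAVshLuc fibre 1, and 8 and 9 without AAVshLuc fibre 3. Without AAVshMCU fibre 1 it was 13 and 10, and on the 15 fibres alone 9 and 8.

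Cox7b, a small subunit of cytochrome c oxidase, is the clearest of these. Its level at day 7 was 6.20, 6.33, 6.20 and 6.54 in AAVshLuc and 7.07, 7.16 and 7.22 in AAVshMCU fibres. The levels of day 14 were 6.62, 6.96, 7.03 and 6.84 against 6.93, 6.61, 6.92 and 6.73. The separation seen at day 7 was gone at day 14. The effect was 0.83 ± 0.15 and -0.07 ± 0.14, a difference of -0.90 ± 0.20 (limma, adjusted p = 0.01), which passed in every alternative. Ndufa7 went from 0.68 ± 0.12 to 0.04 ± 0.11, with the call lost in 2 of 15 fits without 1 fibre. Ndufb2, Ndufb5, Atp5j and Cox6c lost it in 10 to 12 of the 15 (adjusted p up to 0.077, 0.098, 0.11 and 0.11). Ndufv3 has a second probe whose difference between days, 0.57, had the opposite sign. With median scaling Cox7b was faded, Ndufv3 late, and the other 5 passed at day 7 alone.

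The size of this shift depends on the scaling, and abundant transcripts in general moved the same way. Over the 1550 genes with a mean level of 4 to 6 the median effect was 0.10 at day 7 and -0.11 at day 14, and over the 702 genes at 6 and above it was 0.22 and -0.07. Their median differences were -0.21 and -0.28, so the median differences of the subunits exceed those of genes of like level by less than they exceed that of all genes. With median scaling 3 complex I and 5 other subunits rose at day 7 in place of 14 and 18, and with quantile normalization the median differences were -0.21 and -0.16. The sign of both median differences was the same under every scaling tried. Without the Myh1-rich AAVshMCU day 14 fibres the median differences were -0.56 and -0.57. The 29 measured ribosomal proteins had medians of 0.18 and -0.12, and none of them passed for the difference.

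**Figure D3:**
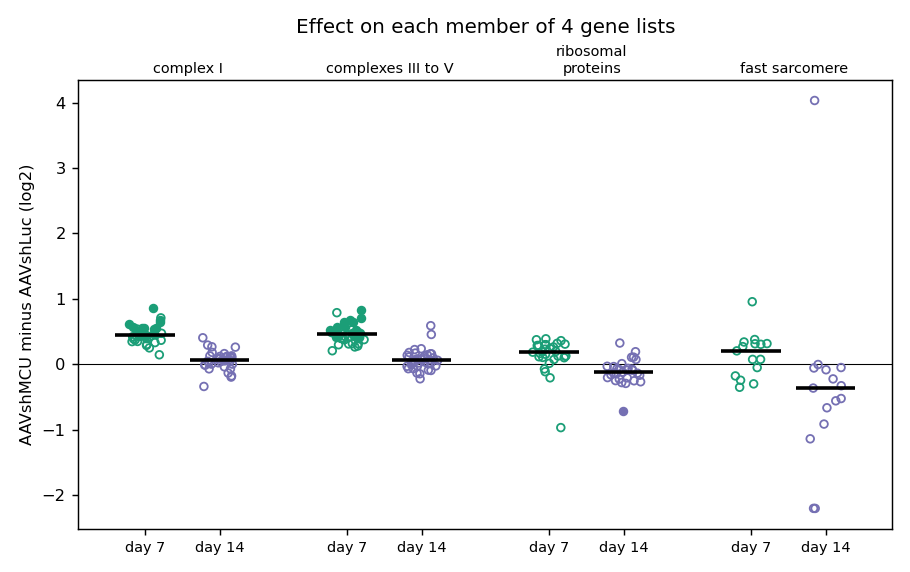
Effect of silencing (AAVshMCU minus AAVshLuc, log2) on each measured member of 4 gene lists at day 7 and day 14; filled points passed (limma, adjusted p below 0.05), horizontal bars are medians. All complex I points at day 7 lie above 0 and none is filled at day 14; the highest fast-sarcomere point at day 14, 4.03, is Myh1.

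Early rises that faded concerned few members of the other mitochondrial and redox lists. Prdx3, the mitochondrial peroxiredoxin, went from 0.67 ± 0.17 to -0.24 ± 0.16 and Gpx3, a secreted glutathione peroxidase, from 1.64 ± 0.51 to -1.02 ± 0.47. Gpx3 was 0.64 in AAVshMCU day 14 fibre 3 and 3.36 to 3.84 in the other 3. Psat1, an enzyme of serine synthesis that belongs to the integrated stress response, went from 0.91 ± 0.18 to -0.05 ± 0.17. Prdx3, Gpx3 and Psat1 lost the call for the difference in 2, 3 and 2 of the 15 fits without 1 fibre (adjusted p up to 0.061, 0.079 and 0.063). Psat1 passed at day 7 alone without both Myh1-rich fibres. Over all genes 4.68% passed for the difference between days, and counts of 1 or 2 in lists of this size are not read as a result about a list. Of 22 antioxidant genes 2 passed for the difference, Prdx3 and Gpx3, and of 20 genes of the integrated and mitochondrial stress response 1 did. In the tricarboxylic acid cycle list 1 of 16 passed, Pcx, the pyruvate carboxylase, which moved from -0.54 ± 0.19 to 0.37 ± 0.18 and kept its call in 2 of the 15 such fits. In the atrophy and proteolysis list 1 of 28 passed, the autophagy kinase Ulk1, which moved from -0.49 ± 0.17 to 0.36 ± 0.16 and kept its call in 7. Ulk1 passed at day 7 alone without both Myh1-rich fibres. Igf1 passed in the growth-signalling list, but its 3 other probes gave differences of the opposite sign, and with the median of all its probes the difference was 1.59 in place of -1.40.

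Interferon-stimulated genes did not move as a block. Of 22 measured members 4 rose and 4 fell at day 7, 2 rose and 3 fell at day 14, and 3 passed for the difference, all with a lower effect at day 14. For all genes 8.74% rose and 5.71% fell at day 7, and 1.75% rose and 2.18% fell at day 14. A lower effect at day 14 passed in 3.05%. The 3 falls of day 14 became 1 without any 1 of AAVshLuc day 7 fibres 1 and 2, AAVshLuc day 14 fibres 1, 3 and 4, and AAVshMCU day 14 fibres 2, 3 and 4. Cxcl10, a chemokine chosen after its values had been seen, was well above background in all 4 AAVshLuc and in none of the 3 AAVshMCU fibres of day 7. It fell at day 7 and did not pass for the difference (limma, adjusted p = 0.055), where its sign was opposite to that of the 3 that passed. Of these 3, Irf1, Ifit3 and Ifit3b, the last 2 had the smallest p-values and are paralogs on chromosome 19 of a family that restrains the translation of viral RNA. The stretches before their start sites are shown because they hold the same 100 bases, with their matches to the interferon response letters in capitals. The letters searched were GAAA, any 2 bases, then GAAA, and on these strands they read TTTC, any 2 bases, then TTTC.
Ifit3, chr19:34583349-34583448, plus strand: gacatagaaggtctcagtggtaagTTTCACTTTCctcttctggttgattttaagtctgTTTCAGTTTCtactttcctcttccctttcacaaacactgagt
Ifit3b, chr19:34607745-34607844, plus strand: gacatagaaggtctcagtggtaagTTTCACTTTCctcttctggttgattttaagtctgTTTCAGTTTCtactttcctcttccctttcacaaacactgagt
These come from RefSeq on GRCm38.p6 and begin 180 and 212 bases before the start of each gene. Searched on both strands, the letters occur in the 250 bases before 2.98% of all 32851 RefSeq starts and before 11 of 18 starts of the measured interferon list.

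Ifit3 was not well above background in any of the 4 AAVshLuc day 7 fibres and was 0.62, 1.24 and -0.08 in the AAVshMCU fibres, at least 13.7-fold higher. By day 14 the Ifit3 levels were -1.12, -1.71, -0.89 and -1.22 in AAVshLuc and 0.32, 0.84, -0.06 and 0.48 in AAVshMCU fibres. It was therefore higher in silenced fibres on both days, without overlap, and the gap was narrower at day 14, with an effect of 1.63 ± 0.33. Ifit3b, also not well above background in any AAVshLuc day 7 fibre, was at least 6.96-fold higher at day 7, and at day 14 its effect was 0.17 ± 0.36. A second Ifit3b probe gave a difference of -4.27. The Ifit3 probe and the first Ifit3b probe share no stretch longer than 8 of their 60 bases. The differences of Ifit3 and Ifit3b between days passed in every alternative (limma, adjusted p up to 0.022 and 0.026). For both genes the AAVshMCU fibres of the 2 days overlapped, with Ifit3b at -1.23 to 0.36 and then -0.81 to -0.20. The AAVshLuc fibres were higher at day 14 than at day 7 without overlap. The 2 days lay on different slides, so a change of the control fibres cannot be told apart from an effect of slide. Irf1, an interferon-induced transcription factor, changed by 0.22 ± 0.44 at day 7 and -1.85 ± 0.41 at day 14, and lost the call for the difference in 11 of 15 fits without 1 fibre. Its second probe gave effects of 2.89 and 0.10, a high value at day 7 and no fall at day 14.

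Of 17 measured genes of the circadian clock 5 were late (Dbp, Per3, Cry2, Tef and Arntl), 1 faded (Per1) and 1 reversed (Per2). In this feedback loop ARNTL with its partner CLOCK drives the Per and Cry genes, whose products repress it, and the PAR bZIP factors DBP and TEF pass the rhythm on to output genes. For 6 of the 17 the silencing had a higher effect at day 14 than at day 7, and for 1 a lower one. At day 7 1 had risen and 4 had fallen, and at day 14 6 had risen and 3 had fallen. Shares over all genes were 8.74% risen and 5.71% fallen at day 7, and 1.75% and 2.18% at day 14. By the test of the difference 1.63% of all genes had a higher and 3.05% a lower effect at day 14. The clock list's median effect was -0.49 at day 7 and 0.49 at day 14, and its median difference was 0.72. Without both Myh1-rich fibres 5 had a higher and 1 a lower effect, and 2 in place of 6 had risen at day 14. Dbp, Per3 and Arntl were then still late, Cry2 passed for the difference alone and Tef passed no test. The number risen at day 14 was 3 without AAVshLuc fibre 2 or AAVshMCU fibre 3 of day 14. The hour at which muscles were taken is not given in the sources used here.

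Dbp was 2.55, 2.39, 3.53 and 2.42 in AAVshLuc and 2.22, 2.47 and 2.76 in AAVshMCU fibres at day 7. The day 14 values were 1.95, 2.49, 2.55 and 2.26 in AAVshLuc and 4.71, 4.39, 4.70 and 4.73 in AAVshMCU fibres. The groups overlapped at day 7 and lay far apart at day 14. The effect was -0.24 ± 0.21 and then 2.32 ± 0.19, which is 5.0-fold, a difference of 2.56 ± 0.28 (limma, adjusted p = 7.1e-06), and a second probe gave 3.34. Per3 was -2.46 to -1.50 in AAVshLuc and 0.08 to 0.61 in AAVshMCU fibres at day 14. It went from -0.22 ± 0.35 to 2.37 ± 0.32, and Cry2 from -0.57 ± 0.23 to 1.04 ± 0.22, with a smaller difference of 0.65 by a second Cry2 probe. Arntl moved the other way. It was -1.79 to -0.76 in the AAVshLuc day 14 fibres and not well above background in any of the 4 AAVshMCU fibres, at least 3.23-fold lower, after an effect of 0.25 ± 0.36 at day 7. Nr1d1, Nfil3 and Bhlhe40 were also lower at day 14 without overlap but did not pass for the difference between days. Nr1d1 was then 3.25 to 3.42 in AAVshLuc and 2.45 to 2.85 in AAVshMCU fibres.

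Per1 and Per2 had already changed at day 7, downward. Per1 was 1.60, 2.08, 2.83 and 1.16 in AAVshLuc and -0.09, -0.84 and -1.02 in AAVshMCU fibres, an effect of -2.57 ± 0.41, and its effect at day 14 was 0.60 ± 0.38. A second Per1 probe gave a smaller difference of 0.90. Per2 was not well above background in any AAVshMCU day 7 fibre, at least 3.83-fold lower. Its day 14 range was -2.37 to -0.68 in AAVshLuc and -0.14 to 0.70 in AAVshMCU fibres, an effect of 1.90 ± 0.48. Per2 was thus reversed, in 11 of 15 fits without 1 fibre, and faded without both Myh1-rich fibres. The differences of Dbp, Per1, Per2, Per3, Cry2 and Arntl passed in all 33 alternatives (largest adjusted p = 0.04). Tef, with effects of -0.23 ± 0.15 and 0.49 ± 0.14, lost the call in 8 of the 15 fits. Usp2, a deubiquitinase with rhythmic expression, was chosen after its values had been seen. It was 2.66 to 2.98 in AAVshLuc and 3.92 to 4.08 in AAVshMCU fibres at day 14, a difference between days of 1.45 ± 0.16.

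**Figure D4:**
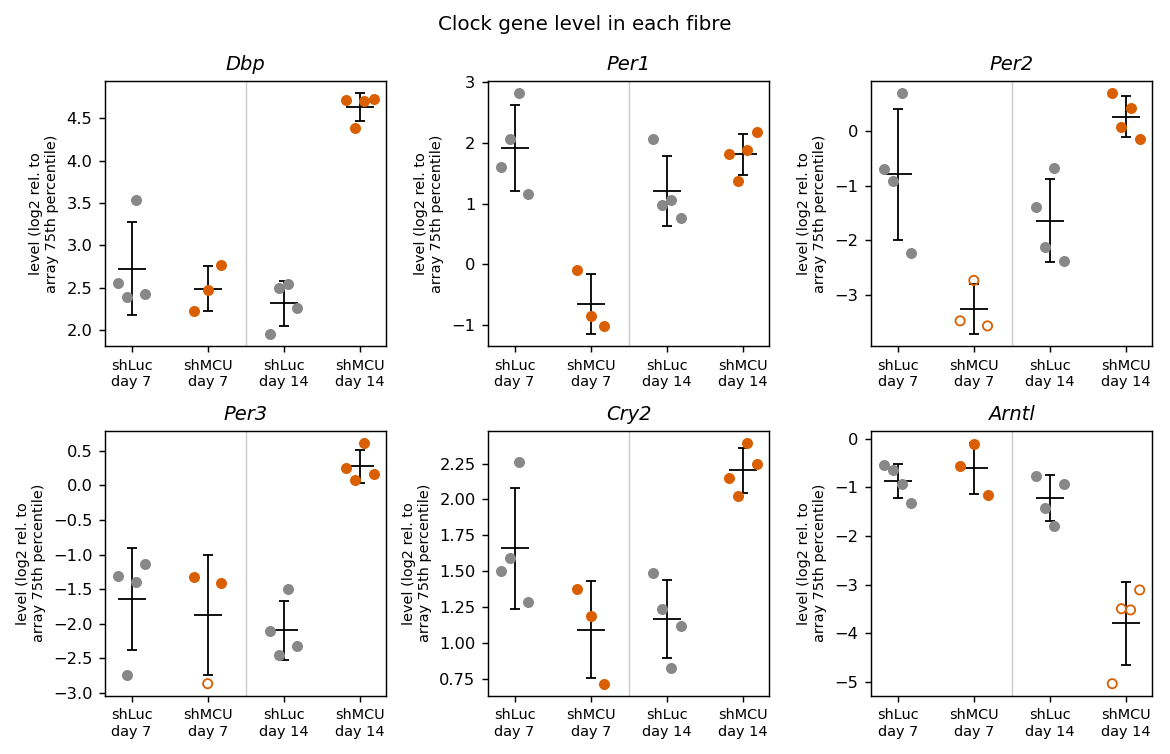
Level (log2 relative to the array's 75th percentile) of 6 clock genes in each fibre by group; open points are fibres in which the probe was not well above background, bars give mean and SD (n = 3 for AAVshMCU at day 7, otherwise 4). At day 14 Dbp, Per2, Per3 and Cry2 are higher and Arntl lower in AAVshMCU fibres without overlap; at day 7 Per1 and Per2 are lower.

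Clock promoters carry 2 well-known elements, the E-box CACGTG bound by ARNTL and CLOCK and the D-box, searched as TTANGTAA, bound by DBP and TEF. A stretch of Per1 with an E-box and one of Per3 with 2 D-boxes, each in capitals, are shown as examples of both, from RefSeq on GRCm38.p6.
Per1, chr11:69098699-69098798, plus strand: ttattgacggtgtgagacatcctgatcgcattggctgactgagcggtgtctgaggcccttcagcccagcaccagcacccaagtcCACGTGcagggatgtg
Per3, chr4:151044796-151044895, minus strand: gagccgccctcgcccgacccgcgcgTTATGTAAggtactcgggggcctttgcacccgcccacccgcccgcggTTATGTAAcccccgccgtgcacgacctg
The Per1 stretch begins 250 bases and the Per3 stretch 230 bases before the start site. The E-box letters occur in the 250 bases before 5 of 19 starts of the measured clock genes and before 6.02% of all starts, and the D-box letters before 1 of 19 and 2.06%, both strands searched. Matches are letters in a window and were not tied to the measured changes.

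Late changes outside the clock included falls of Pim1, Mgme1, Id2 and Aurka and rises of Zfp30 and Synj1. Pim1, a growth-promoting kinase, was 0.93, 0.93, 3.20 and 1.51 in AAVshLuc and 2.20, 1.70 and 1.06 in AAVshMCU fibres at day 7. Its day 14 values were 3.59, 2.74, 2.82 and 2.87 against -0.49, 0.12, 0.27 and 0.27. The groups were mixed at day 7 and apart at day 14. Pim1 changed by 0.01 ± 0.43 and then -2.96 ± 0.40, a difference of -2.98 ± 0.59 (limma, adjusted p = 0.0034). Mgme1, an exonuclease that maintains mitochondrial DNA, changed by -0.69 ± 0.32 and -2.39 ± 0.30, and lost the call for the difference in 4 of 15 fits without 1 fibre (adjusted p up to 0.054). Id2, an inhibitor of basic helix-loop-helix factors, changed by 1.86 ± 0.86 and -3.25 ± 0.80, and Aurka, a mitotic kinase, by 1.33 ± 0.54 and -2.05 ± 0.50. Id2, Aurka and Mgme1 did not pass for the difference on the 15 fibres alone (adjusted p = 0.094, 0.076 and 0.10), and without the Myh1-rich fibres none of these 3 was late. Among late rises, Zfp30 went from -0.19 ± 0.30 to 2.07 ± 0.28 and Synj1, a phosphoinositide phosphatase of the synapse, from 0.05 ± 0.32 to 1.96 ± 0.30. Zfp30 was late in all 15 fits without 1 fibre and on the 15 fibres alone, and Synj1 in the former but not the latter. Synj1 passed at day 14 but not for the difference when both Myh1-rich fibres were left out.

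A change of direction was rare and was led by Abcc9, the sulfonylurea receptor subunit SUR2 of the ATP-sensitive potassium channel, which links membrane excitability to the energy state of the fibre. Its level was 4.01, 3.67, 3.66 and 3.77 in AAVshLuc and 1.58, 1.71 and 0.87 in AAVshMCU fibres at day 7. On day 14 the order was turned, with 1.58, 1.77, 1.57 and 1.40 in AAVshLuc and 4.21, 4.14, 3.86 and 4.42 in AAVshMCU fibres. The high and low groups changed places with no overlap, and the low groups lay close to the wild type means of 1.74 and 1.35. The effect was 5.24-fold lower at day 7 (-2.39 ± 0.18) and 5.97-fold higher at day 14 (2.58 ± 0.17). The difference of 4.97 ± 0.24 had the smallest p-value of all genes (limma, adjusted p = 9.1e-13), and Abcc9 was reversed in all 15 fits without 1 fibre, on the 15 fibres alone and without the Myh1-rich fibres. No second Abcc9 probe was kept. Abcc9 is also expressed by mural cells of vessels. Of 7 mural markers Cspg4, Myh11 and Tagln were well above background on all 15 arrays and Acta2 on all but 1, whereas Pdgfrb and Kcnj8 were so on none and Rgs5 on 1. The summed level of the 4 measured mural markers, relative to the 75th percentile on a linear scale, was 6.31 to 9.89 in AAVshLuc and 10.2 to 11.7 in AAVshMCU fibres of day 7, where Abcc9 was lower after silencing, and 6.67 to 7.93 in AAVshLuc and 6.31 to 7.68 in AAVshMCU fibres of day 14, where Abcc9 was higher. Their part in the result was not tested.

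The other reversed genes with a strong difference were at or near background in a group. Ppp2r2c, a regulatory subunit of protein phosphatase 2A, was well above background only in AAVshLuc fibres at day 7 and in AAVshMCU fibres at day 14, at least 3.02-fold lower and then at least 2.72-fold higher after silencing. Gdpd3 was at least 10.3-fold lower at day 14. The kallikreins Klk1b26 and Klk1b5 rose at day 7 by 2.79 ± 0.68 and 2.34 ± 0.49 and fell at day 14 by 2.55 ± 0.63 and 2.09 ± 0.46. They belong to a multigene family, their probes share a stretch of 19 bases, and their signals may not be fully separate. Without the Myh1-rich fibres both were faded. Zfp33b, a zinc finger gene that faded, was at least 3.50-fold lower at day 7.

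Across the 23 pathway lists, 13 had no member that passed for the difference between days, which 4.68% of all genes passed. The median difference of a list fell below that of all genes in 12 lists and was highest for the clock. Fatty acid oxidation had median effects of 0.58 and 0.44, and the day 14 value was -0.14 without the Myh1-rich fibres. In the denervation and acetylcholine receptor list 5 of 17 members fell at day 7 and 1 at day 14, against 5.71% and 2.18% of all genes. None passed for the difference. The 5 became 1 without AAVshLuc fibre 3 or AAVshMCU fibre 3 of day 7, and 3 without AAVshMCU fibre 2. Of the remaining large differences, the rises in effect of Cd28, Lonrf3, Ttc9, Pop4, D13Ertd787e and D16Ertd472e ranged from 2.56 to 3.25, and the fall of Fam25c was -3.35. Cd28 and Lonrf3 lost the call in 1, D13Ertd787e in 3, Fam25c in 10 and D16Ertd472e in 12 of the 15 fits without 1 fibre. Without both Myh1-rich fibres Lonrf3 passed at day 7 alone, Pop4 was reversed, and neither D16Ertd472e nor Fam25c passed any of the 3 tests.

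**Figure D5:**
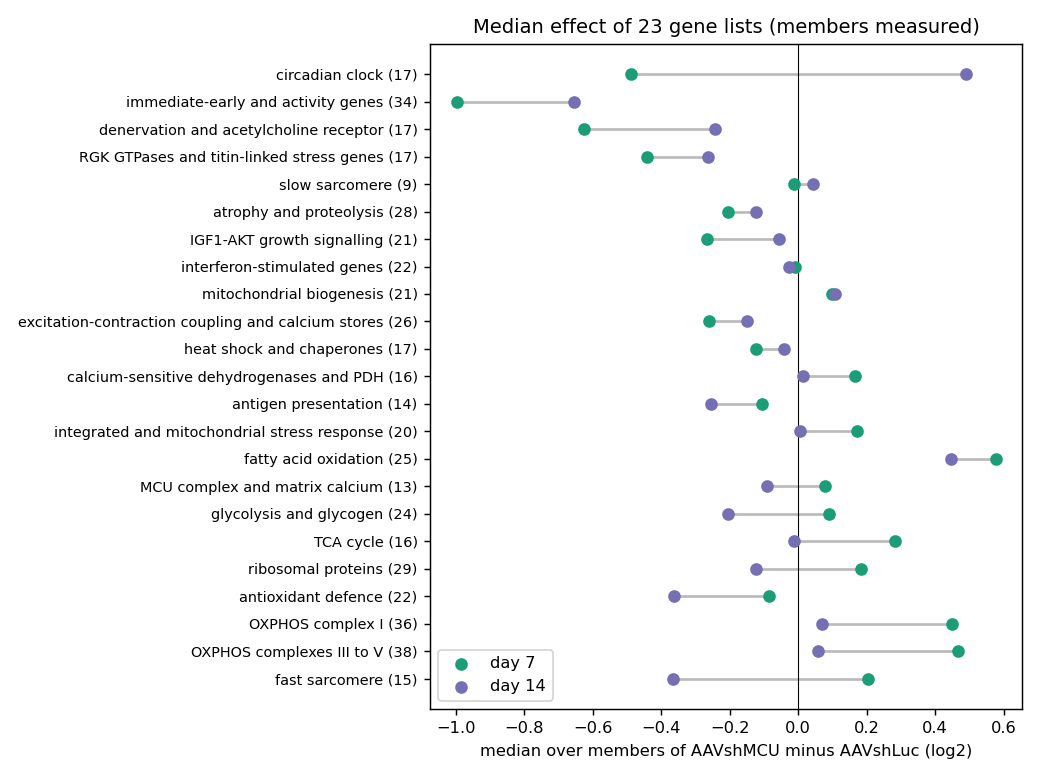
Median over the measured members (number in brackets) of the effect of silencing (AAVshMCU minus AAVshLuc, log2) at day 7 and day 14 for 23 gene lists, ordered by the median difference between days. The clock list crosses from -0.49 to 0.49, and the lists for complex I and for complexes III to V move from 0.45 and 0.47 to values near 0.

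Markers of other cell types were found in part. Of 12 macrophage and myeloid markers 7 were measured, of 13 lymphocyte markers 7, of 9 fibroblast markers 4, of 8 endothelial markers 4 and of 7 mural markers 4. Markers not well above background on any of the 15 arrays included Cd163 and Mrc1 of macrophages, Pdgfra, Lum and Dpt of fibroblasts, Pdgfrb and Kcnj8 of mural cells, Cdh19 of Schwann cells, Lep of fat cells and Myf5 of satellite cells. Others, such as Cd68 and Csf1r of macrophages and Ptprc of leukocytes, were well above background on all 15. The summed level of macrophage markers, relative to the 75th percentile on a linear scale, was 239 to 276 in AAVshLuc and 292 to 336 in AAVshMCU fibres at day 7, and 275 to 308 against 256 to 332 at day 14. Most of this sum is Itgam, whose mean log2 level at day 7 was 7.85 in AAVshLuc and 8.17 in AAVshMCU fibres. Cd68, on the same list, fell by 2.76 ± 0.71 at day 7 (limma, adjusted p = 0.01). The summed level of 4 pericyte and smooth muscle markers was 10.2 to 11.7 in AAVshMCU day 7 fibres and 6.31 to 9.89 in the other 3 groups. Among them Cspg4, the NG2 proteoglycan, went from 2.19 ± 0.26 to -0.34 ± 0.24, a difference of -2.53 ± 0.35. The summed level of 3 Schwann cell and nerve markers at day 7 was 1.18 to 2.18 in AAVshLuc and 2.93 to 3.31 in AAVshMCU fibres, and at day 14 1.79 to 3.42 against 2.07 to 2.98. That of 10 myofibre markers was 1471 to 1612 against 1612 to 2043 at day 7 and 1447 to 1775 against 1545 to 2006 at day 14. At day 7 the sums of AAVshLuc and AAVshMCU fibres thus did not overlap for the myofibre, macrophage, lymphocyte, mural and Schwann cell lists, and overlapped for the fibroblast, endothelial, fat, red cell and satellite cell lists. The summed level of 3 red cell markers was 6.90 to 140 in AAVshMCU day 14 fibres and at most 13.4 elsewhere. The part of other cells in the results above was not tested.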

How the data were processed

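Single-fibre RNA was amplified and hybridised to 1-colour Agilent arrays. Per the file headers, the deposited values are spot intensity from Feature Extraction 10.7.3.1, background-subtracted and spatially detrended, with surrogate values for spots not above background, and not scaled between arrays; amplification and random-primer labelling, per the labels, do not keep strand. The submitters' processed intensity in the deposited series matrix served as an alternative. Here log2 intensity of 59305 non-control spots (55681 probes) was scaled to each array's 75th percentile. A probe was kept if 3 or more arrays of any of the 4 groups called it well above background (30601 probes), with the probe of highest mean level over the 15 arrays for each of 21779 genes; of all probes 26425 were named by accession, 3988 by symbol, 826 by synonym and 24442 as in the files. Group means of all 30 arrays were fitted with limma 3.58.1 in R 4.3.3 (22 residual degrees of freedom), with 2-sided moderated tests and Benjamini-Hochberg adjustment over all genes. Fibre numbers were not taken to pair fibres: same-numbered fibres correlated from -0.19 to 0.21, above 0.1 in 2 of 7 pairs. On simulated data of 21779 genes, differences between days of 1, 2 and 3 were recovered in 37.3%, 80.6% and 95.5% of changed genes. The simulated noise was normal, with 1 SD per gene shared by all 30 arrays. In the data the AAVshMCU groups had the widest median SD, 0.29 and 0.30, which these rates do not allow for. "At least" folds set the bright group's mean against the dim group's mean of the array's lowest detected signal or the probe's own, whichever was higher. Named genes were Mcu, the 12 largest rises and falls in the difference, up to 6 a direction of each class, up to 3 members of each list, up to 6 with an undetected group, genes of an earlier account, and Usp2; not all are printed, and a few are not reported here. Members and lists were chosen with earlier results of these data known. Alternatives covered background correction, scaling, filters, probe choice, covariates, blocks and single fibres. No protein sequences were used. Figures were drawn with matplotlib.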

Additional observations from a re-analysis of the deposited data

Results flagged for a closer look

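For 57 of the named genes the silencing effect differed between days by the test of that difference (limma, adjusted p below 0.05), which is how most of them were chosen. Values here are the effect at day 14 minus that at day 7, on the log2 scale. For Arntl, Gdpd3, Gstt3, Ifit3, Ifit3b, Per2, Ppp2r2c and Zfp33b at least 1 group was not well above background on any array, so their values are what the fit gave and not measured sizes, and no order is read from them. A higher effect at day 14 was found for Abcc9 (4.97), Ppp2r2c (4.77), Per2 (4.38), Gstt3 (4.37), Fosb (3.95), Egr2 (3.83), Zfp33b (3.74) and Pop4 (3.25). It was also higher for Per1 (3.17), Lonrf3 (3.12), Cd28 (3.0), Ttc9 (2.86), D16Ertd472e (2.68), Per3 (2.59), D13Ertd787e (2.56), Dbp (2.56) and Zfp30 (2.26). The other higher ones were Synj1 (1.91), Cry2 (1.61), Ppp1r1c (1.59), Usp2 (1.45), Fosl2 (0.91), Pcx (0.91), Ulk1 (0.86) and Tef (0.72). The effect was lower at day 14 for Gdpd3 (-5.72), Spidr (-5.42), Klk1b26 (-5.35), Id2 (-5.11), Klk1b5 (-4.43), Glb1 (-4.34), Ifit3 (-4.29) and Mki67 (-4.02). Lower values were also those of Coro2a (-3.75), Ifit3b (-3.58), Smr2 (-3.49), Aurka (-3.39), Sstr4 (-3.37), Fam25c (-3.35), Ces1d (-3.24) and Tmem14c (-3.0). Further lower ones were Pim1 (-2.98), Arntl (-2.82), Gpx3 (-2.66), Cspg4 (-2.53), Irf1 (-2.08), Mgme1 (-1.70), Igf1 (-1.40) and Psat1 (-0.96). The remaining lower ones were Prdx3 (-0.92), Cox7b (-0.90), Ndufv3 (-0.78), Ndufb5 (-0.66), Cox6c (-0.65), Ndufa7 (-0.64), Atp5j (-0.60) and Ndufb2 (-0.55). 

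Single fibres stood apart from the other 3 of their group by Dixon's test in 20 cases among named genes. Chance passes this test in about 1 of 20 groups, and every named gene was tested, so a part of the 20 is expected by chance. Only groups with 4 fibres were tested, so AAVshMCU at day 7, with 3, could not appear. The values are levels relative to the 75th percentile, on the log2 scale. AAVshLuc day 14 fibre 1 had 6.53 for Rrad, 6.10 for Ankrd1, 2.80 for Myc, 2.87 for Cgref1, 5.44 for Ndufb5 and 3.59 for Pim1. AAVshLuc day 14 fibre 3 had -0.76 for Psat1. AAVshLuc day 14 fibre 4 had -5.16 for D16Ertd472e. AAVshLuc day 7 fibre 2 had 3.07 for Slc8b1 and -2.74 for Per3. AAVshLuc day 7 fibre 3 had 3.53 for Dbp and 3.02 for Usp2. AAVshLuc day 7 fibre 4 had 0.93 for Lonrf3 and 0.24 for Synj1. AAVshMCU day 14 fibre 1 had -4.93 for Pop4. AAVshMCU day 14 fibre 2 had -1.73 for Fam25c and 4.39 for Dbp. AAVshMCU day 14 fibre 3 had 1.59 for Cd28, 0.093 for Ttc9 and 0.64 for Gpx3.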

How the results depend on the processing

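Across 33 alternatives, 2473 of 2474 values of the 75 named genes kept their direction and 2153 their side of the threshold. The exception in direction was Igf1, 1.59 with the median of its probes. With the spread from the 15 fibres alone, 347 genes passed for the difference between days, 1711 at day 7, 312 at day 14 and 1759 for the mean. In that fit 90 were held, 220 faded and 73 late. It has fewer residual degrees of freedom and also another estimate of the spread. For the Mcu difference the SE was 0.70 in place of 0.55. The median SD over genes was 0.29 and 0.30 in the AAVshMCU groups of day 7 and day 14. It was 0.28 and 0.24 in the AAVshLuc groups, and 0.21 to 0.26 in the groups outside this contrast. Array weights gave 541 for the difference, 1881 at day 7, 130 held and 334 faded. Without a filter 144 were held. With Myh4 and Myh1 as covariates 445 passed at day 14 and 115 were held, and without both Myh1-rich AAVshMCU day 14 fibres, an alternative chosen after seeing the data, 410 and 105. Each slide fitted alone gave 954 at day 7 and 164 at day 14. The cause of these shifts was not tested. Leaving out 1 fibre gave 1938 to 3271 genes at day 7, 496 to 1032 at day 14, 148 to 254 held and 443 to 687 faded. The replicate block, which pairs fibres by number alone, lowered the difference to 607 genes and the faded to 394. Signal over background limits the genes given as bounds, and 3 or 4 fibres a group limit the precision.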
